A study of Saccharomyces cerevisiae with 8 samples.

Results

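The proteasome is the protease that destroys ubiquitin-tagged proteins, and its subunit genes were followed here at single ACA sites of their mRNAs. The members were 33 subunit genes and RPN4, the transcription factor that controls them, taken as all lines of the deposited table whose identifier before its last dot is 1 of the 34 locus names. They made 34 of 6104 gene models and 429 of 76330 distinct sites. Their symbols were matched by locus name in the R64 gene table for 34 of 34.

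The core particle is a barrel of alpha and beta rings, with the cutting sites inside on beta subunits. The regulatory particle caps it: its base holds the RPT ATPases, which unfold substrates, and its lid holds the RPN11 deubiquitinase. The measurement rests on MazF, an RNase that cuts before ACA unless the first A carries the m6A mark, so an ACA methylated by IME4, the m6A methyltransferase of meiotic yeast, is left uncut.

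Diploid SK1 yeast cells (MAT a/alpha), grown in YPD at 30 °C and put through induction of meiosis, gave polyA RNA for 8 libraries in 4 groups of 2 biological replicates. The groups were KO IP, WT IP, KO input and WT input, where IP is pulldown with an anti-m6A antibody and KO carries ime4::HIS3 on both copies. Every library, KO and WT, was also homozygous for lys2, ho::LYS2 and ndt80::LEU2, so the meiotic regulator NDT80 was disrupted in WT cells too. Values are cleavage efficiencies, fractions from near 0 to 1, and a higher value was read as more cutting, a direction that the sources used here do not state.

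Across the whole table, 36.3% to 81.9% of sites had a value in a library, against 82.5% to 97.4% of the proteasome sites. No read counts came with the fractions, so the depth behind a value is unknown. The RNA was bulk RNA of many cells. Cutting in part of the molecules from every cell cannot be told apart from cutting only in molecules from part of the cells. Of 27 listed IME4 sites, 0 and 0 had a value in KO IP, 16 and 24 in WT IP, 2 and 0 in KO input, and 21 and 23 in WT input. Sites of RME1, the haploid repressor of meiosis, differed too: of 15, 4 and 6 had a value in KO IP, 8 and 8 in WT IP, 15 and 15 in KO input, and 0 and 3 in WT input. The other genes checked were IME1, IME2 and NDT80. Of 13 IME1 sites, 11 and 13 had a value in KO IP, 12 and 13 in WT IP, and 13 in each input library. For IME2, with 20 sites, it was 16 and 19 in KO IP and 20 in each of the other libraries. For NDT80, with 3 sites, it was 0 and 0 in KO IP, 1 and 0 in WT IP, 0 and 1 in KO input, and 2 and 3 in WT input. The part of the RME1 difference in the proteasome values was not tested.

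A site is written as the gene and its offset in nucleotides from the start of the gene model, so RPN9 +616 lies 616 nucleotides in. Chromosomes and positions are those of the deposited table, whose genome build is not given in the sources used here, and exon, intron or UTR were not given. A site was tested where all 8 libraries had a value, which held for 340 of the 429 proteasome sites (79.3%) and for 17361 of all sites (22.7%). All 34 genes had tested sites, from 4 in RPN13 and SEM1 to 22 in RPN1. Replicates lay close together at these proteasome sites. The median absolute difference within a group was 0.0346 in KO IP, 0.0320 in WT IP, 0.0215 in KO input and 0.0261 in WT input. Over all tested sites it was larger, 0.0489, 0.0480, 0.0301 and 0.0420 in that order of groups. The part of this closer spread in the shares of called sites below was not tested.

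Cutting ranged widely within each transcript set. At 26 of the 340 sites (7.65%) the efficiency was below 0.1 in all 8 libraries, and at 20 (5.88%) it was above 0.9 in all 8. Among all tested sites those shares were 6.43% and 2.76%. The median efficiency of the proteasome sites was 0.718 in KO IP, 0.731 in WT IP, 0.694 in KO input and 0.698 in WT input, against 0.655, 0.678, 0.627 and 0.643 over all tested sites in that order of groups.

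Without IME4, proteasome transcripts after pulldown were cut more at some ACA sites and less at others. In KO IP against WT IP, 64 of the 340 sites were higher in KO, 91 were lower and 185 did not pass an adjusted p of 0.05 in limma. Over all tested sites 41.3% passed, 17.0% higher and 24.3% lower, and the proteasome shares of 18.8% and 26.8% lie near that background. The median difference was -8.3e-05 over the proteasome sites and -0.00889 over all sites. Both directions occurred in 25 of the 34 genes (73.5%), against 57.0% of the 1881 genes with at least 4 tested sites. Of all 3762 genes with a tested site, which had fewer tested sites each, it was 32.7%. The 1881 genes were not matched to the 34 by number of tested sites. Among the 34, SEM1 alone had no site past the threshold. The KO IP libraries lay wholly above or below the WT IP libraries at 264 of the 340 sites, against 72.5% of all tested sites.

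The largest differences ran in both directions, up to 0.914 at RPN9 +616 and down to -0.772 at PUP2 +466. A site was higher in KO by 0.5 or more at 17 sites in 15 genes, where the WT IP means ran from 0.0115 to 0.381 and the KO IP means from 0.678 to 0.961. Those 17 are 5.0% of the proteasome sites, against 4.75% of all tested sites. At 11 sites in 8 genes the efficiency was lower in KO IP by 0.5 or more (3.24%, against 2.71% of all). At least 1 such higher site was found in 44.1% of the proteasome genes and in 19.5% of all genes with a tested site, but the proteasome genes had more tested sites each, 340 in 34 genes against 17361 in 3762.

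In the lid, 17 of 91 tested sites were higher in KO IP and 17 lower. Each is 18.7%, against 17.0% higher and 24.3% lower among all tested sites. RPN9 (YDR427W), a PCI-domain subunit of the lid, held the largest difference of the 34 genes at RPN9 +616 (chromosome 4, position 1314798). Its efficiency was 0.958 and 0.929 in KO IP, against 0.0280 and 0.0315 in WT IP, a difference of 0.914 ± 0.0249 (SE; adjusted p = 4.93e-05 by limma). Of the 9 tested sites of RPN9, 5 were higher in KO IP and 0 lower.

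RPN11 (YFR004W), the deubiquitinase that frees ubiquitin from substrates, had a pair of such sites. At RPN11 +732 (chromosome 6, position 155697) the efficiency was 0.918 and 0.914 in KO IP, against 0.108 and 0.111 in WT IP (difference 0.807 ± 0.0354 SE, adjusted p = 8.90e-05 by limma). At RPN11 +428 it was 0.962 and 0.960 in KO IP, against 0.343 and 0.351 in WT IP (0.614 ± 0.0262 SE). The 3 sites of RPN11 called lower were smaller; of these RPN11 +871 had 0.413 and 0.355 in KO IP, against 0.666 and 0.604 in WT IP.

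RPN6 (YDL097C), a lid subunit that also touches the core, was at 1.00 and 0.890 in KO IP at RPN6 +680 (chromosome 4, position 290452), against 0.242 and 0.263 in WT IP. The difference was 0.693 ± 0.0449 (SE, adjusted p = 0.000237 by limma); 1.00 is the highest value of its library, so the SD there does not give the replicate spread. RPN3 (YER021W), a PCI-domain subunit, reached 0.798 and 0.906 in KO IP at RPN3 +1499 (chromosome 5, position 203963), against 0.208 and 0.149 in WT IP (0.674 ± 0.0598 SE). RPN8 (YOR261C), the partner of RPN11 in the lid, had 0.772 and 0.584 in KO IP at RPN8 +665, against 0.193 and 0.155 in WT IP (0.504 ± 0.0642 SE, adjusted p = 0.00214 by limma). In all 3 genes the KO IP libraries lay above the WT IP libraries with no overlap.

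The largest difference was a lower one in RPN5 and RPN7 (YPR108W). RPN5 (YDL147W), another PCI-domain subunit, had 0.367 and 0.330 in KO IP at RPN5 +179 (chromosome 4, position 195297), against 0.919 and 0.905 in WT IP (difference -0.563 ± 0.0244 SE, adjusted p = 8.56e-05 by limma). RPN7, also of the PCI family, had 0.404 and 0.532 in KO IP, against 0.945 and 0.968 in WT IP at RPN7 +273 (-0.488 ± 0.0448 SE). RPN12 (YFR052W), which joins the lid late in assembly, was called lower at 5 of 7 sites, while its largest difference was a higher one at RPN12 +919, with 0.931 and 0.945 in KO IP against 0.518 and 0.432 in WT IP. SEM1 (YDR363W-A), a small acidic lid subunit, had 4 tested sites and none passed in IP. Its largest difference was at SEM1 +272, with 0.888 and 0.836 in KO IP against 0.812 and 0.703 in WT IP (adjusted p = 0.175 by limma).

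Among the ATPases of the base, 10 of 69 sites were higher in KO IP and 21 lower (14.5% and 30.4%, against 17.0% and 24.3% of all tested sites). RPT4 (YOR259C) carried a pair of large higher sites far apart in its transcript: RPT4 +455 (chromosome 15, position 822751) had 0.908 and 0.986 in KO IP, against 0.305 and 0.202 in WT IP (difference 0.694 ± 0.0449 SE, adjusted p = 0.000236 by limma). RPT4 +1474 had 0.859 and 0.902 in KO IP, against 0.321 and 0.335 in WT IP (0.553 ± 0.0342 SE). RPT6 (YGL048C) had 0.905 and 0.928 in KO IP, against 0.334 and 0.291 in WT IP at RPT6 +1321 (chromosome 7, position 419677; 0.605 ± 0.0499 SE). These 3 sites, in subunits that all sit in the ATPase ring, were at or above 0.859 in each KO IP library.

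RPT1 (YKL145W) showed both directions in 1 transcript. RPT1 +323 (chromosome 11, position 176515) had 0.923 and 0.883 in KO IP, against 0.281 and 0.225 in WT IP (difference 0.650 ± 0.0295 SE, adjusted p = 9.63e-05 by limma). RPT1 +1528 (position 177720) had 0.348 and 0.373 in KO IP, against 0.970 and 0.958 in WT IP (-0.604 ± 0.0251 SE, adjusted p = 8.07e-05 by limma). RPT3 (YDR394W) had 6 sites lower in KO IP and 0 higher of 13, and RPT3 +1343 had 0.381 and 0.308 in KO IP, against 0.836 and 0.770 in WT IP. For RPT2 (YDL007W), an ATPase that opens the gate of the core, the largest difference was lower at RPT2 +1103, with 0.226 and 0.0813 in KO IP against 0.569 and 0.719 in WT IP (adjusted p = 0.00446 by limma). RPT5 (YOR117W) had 0.603 and 0.455 in KO IP, against 0.744 and 0.826 in WT IP at RPT5 +1491 (adjusted p = 0.0221, and 0.0159 to 0.101 over its alternatives). That call ended without KO IP replicate 2 (adjusted p = 0.0808) and without WT IP replicate 2 (0.101).

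The base subunits that are not ATPases had 8 of 53 sites higher in KO IP and 14 lower. These are 15.1% and 26.4%, against 17.0% and 24.3% of all tested sites. RPN1 (YHR027C), the docking scaffold for ubiquitin shuttle proteins, had 1.00 and 0.883 in KO IP at RPN1 +1073, against 0.397 and 0.365 in WT IP (difference 0.560 ± 0.0480 SE, adjusted p = 0.000552 by limma), where 1.00 is again the top of its library. The ubiquitin receptors RPN13 (YLR421C) and RPN10 (YHR200W) differed in direction at their largest sites. RPN13 +514 had 0.655 and 0.691 in KO IP, against 0.409 and 0.397 in WT IP, while RPN10 +468 had 0.112 and 0.251 in KO IP, against 0.578 and 0.522 in WT IP. RPN2 (YIL075C), the scaffold that holds RPN13, was called lower at 7 of 18 sites and higher at 0. Its largest, RPN2 +434, had 0.455 and 0.485 in KO IP, against 0.997 and 0.794 in WT IP (adjusted p = 0.0484, and 0.00932 to 0.196 over its alternatives). The call at RPN2 +434 ended without KO IP replicate 1 (0.160) or 2 (0.136), WT IP replicate 1 (0.196) or 2 (0.0683), or either KO input library (0.0876 each), and 0.997 is the highest value of its library.

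**Figure D1:**
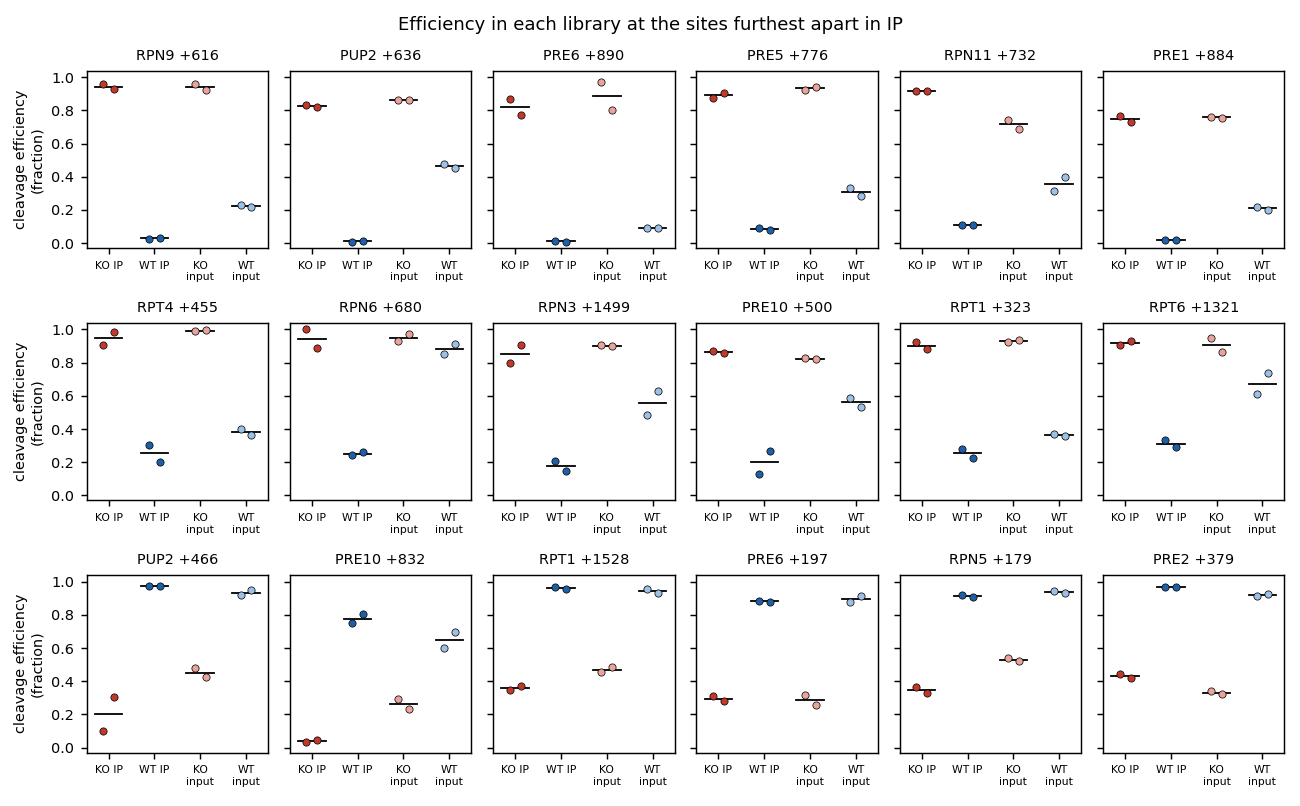
Cleavage efficiency (y axis, fraction) in each library at the 12 sites furthest higher and the 6 furthest lower in KO IP, 1 a gene and direction. Points are libraries and bars the mean of 2, with KO IP, WT IP, KO input and WT input from left to right; at RPN9 +616 both KO groups lie above 0.92 and both WT IP libraries below 0.04.

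In the alpha ring of the core, 13 of 61 sites were higher in KO IP and 16 lower. These are 21.3% and 26.2%, against 17.0% and 24.3% of all tested sites. PUP2 (YGR253C) held the largest differences of the ring in both directions, at neighbouring tested sites. PUP2 +636 (chromosome 7, position 1016308) had 0.831 and 0.819 in KO IP, against 0.00798 and 0.0159 in WT IP (difference 0.813 ± 0.0219 SE, adjusted p = 4.93e-05 by limma). PUP2 +466 (position 1016478) had 0.0984 and 0.307 in KO IP, against 0.975 and 0.975 in WT IP (-0.772 ± 0.0676 SE, adjusted p = 0.000595 by limma). In WT IP the first of these was almost uncut and the other almost fully cut.

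PRE6 (YOL038W) repeated that arrangement with 3 sites higher and 3 lower of 9. PRE6 +890 (chromosome 15, position 256903) had 0.867 and 0.771 in KO IP, against 0.0133 and 0.00977 in WT IP (difference 0.807 ± 0.0607 SE). PRE6 +197 (position 256210) had 0.311 and 0.279 in KO IP, against 0.884 and 0.880 in WT IP (-0.587 ± 0.0303 SE). PRE6 +763 and PRE6 +956, on either side of PRE6 +890 with PRE6 +861 between, were lower in KO IP by 0.584 and 0.578. PRE5 (YMR314W) was the alpha gene without a lower site: 3 of 8 were higher, led by PRE5 +776 (chromosome 13, position 890924), with 0.877 and 0.906 in KO IP against 0.0901 and 0.0793 in WT IP (0.807 ± 0.0272 SE, adjusted p = 5.22e-05 by limma).

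PRE10 (YOR362C) had 1 higher and 4 lower sites of 12. PRE10 +500 (chromosome 15, position 1022712) had 0.871 and 0.857 in KO IP, against 0.129 and 0.269 in WT IP (difference 0.665 ± 0.0489 SE). PRE10 +832 (position 1022380) had 0.0358 and 0.0471 in KO IP, against 0.749 and 0.806 in WT IP (-0.736 ± 0.0428 SE, adjusted p = 0.000172 by limma). SCL1 (YGL011C), whose largest difference was lower at SCL1 +684 with 0.473 and 0.496 in KO IP against 0.978 and 0.977 in WT IP, had 5 lower and 2 higher sites of 9. PRE9 (YGR135W), the alpha subunit that cells can live without, was higher at PRE9 +980, with 0.879 and 0.824 in KO IP against 0.616 and 0.541 in WT IP. PRE8 (YML092C) had 0.439 and 0.255 in KO IP, against 0.0975 and 0.0792 in WT IP at PRE8 +358 (adjusted p = 0.0249, and 0.00814 to 0.0960 over its alternatives). That call ended without KO IP replicate 1 (0.0571), WT IP replicate 1 (0.0795) or WT IP replicate 2 (0.0960).

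In the beta ring, 11 of 49 sites were higher and 18 lower in KO IP, together 59.2%, against 41.3% of all tested sites. This was the highest share among the subunit groups, and the single gene RPN4 had 58.8%. In PRE1 (YER012W) the largest difference was at PRE1 +884 (chromosome 5, position 184256), its last listed site. It had 0.764 and 0.730 in KO IP, against 0.0190 and 0.0168 in WT IP (difference 0.729 ± 0.0236 SE, adjusted p = 5.22e-05 by limma). PRE2 (YPR103W), the subunit with chymotrypsin-like activity, had 0.443 and 0.418 in KO IP at PRE2 +379 (chromosome 16, position 747635), against 0.967 and 0.969 in WT IP (-0.538 ± 0.0228 SE, adjusted p = 8.07e-05 by limma). PUP1 (YOR157C), with trypsin-like activity, had 3 of 5 sites lower and 0 higher, the largest at PUP1 +844 with 0.445 and 0.588 in KO IP against 0.882 and 0.897 in WT IP.

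PRE3 (YJL001W), with caspase-like activity, went the other way, with 4 of 6 sites higher and 1 lower. Its largest, PRE3 +342, had 0.415 and 0.632 in KO IP, against 0.261 and 0.110 in WT IP (adjusted p = 0.0213, and 0.0107 to 0.0952 over its alternatives); the call ended without KO IP replicate 2 (0.0633) and without WT IP replicate 2 (0.0952). PRE7 (YBL041W) was the gene with the highest share of its sites past the threshold, 2 higher and 5 lower of 8, and PRE7 +609 had 0.706 and 0.726 in KO IP against 0.231 and 0.242 in WT IP. PRE4 (YFR050C), a structural beta subunit, had 1 higher and 5 lower of 10. PRE4 +856 had 0.938 and 0.919 in KO IP, against 0.387 and 0.357 in WT IP (0.557 ± 0.0243 SE). PUP3 (YER094C) had 2 higher of 5, with 0.718 and 0.676 in KO IP at PUP3 +127 against 0.347 and 0.240 in WT IP.

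RPN4 (YDL020C), a short-lived zinc-finger activator that is itself destroyed by the proteasome, had 5 sites higher and 5 lower of 17 in KO IP, none by 0.5 or more. Together they are 58.8% of its tested sites, against 41.3% of all tested sites. RPN4 +1034 had 0.948 and 0.950 in KO IP, against 0.618 and 0.574 in WT IP (difference 0.354 ± 0.0274 SE, adjusted p = 0.000403 by limma). RPN4 +1144 had 0.814 and 0.753 in KO IP, against 0.425 and 0.439 in WT IP (0.351 ± 0.0312 SE, adjusted p = 0.000618 by limma). RPN4 +304 had 0.943 and 0.874 in KO IP, against 0.687 and 0.626 in WT IP, and RPN4 +1647 had 0.552 and 0.475 in KO IP, against 0.803 and 0.905 in WT IP.

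The other 6 RPN4 calls in IP each ended under some alternative. The largest difference of the gene, at RPN4 +1485 with 0.591 and 0.282 in KO IP against 0.820 and 0.822 in WT IP, had an adjusted p of 0.0285 (0.00476 to 0.10 over its alternatives) and ended without WT IP replicate 1 (0.0976) or 2 (0.10) and without either KO input library (0.0523 each). RPN4 +1111 and RPN4 +1383 ended without any of the 4 IP libraries, with adjusted p up to 0.125 and 0.0773. RPN4 +479, RPN4 +652 and RPN4 +1535 had adjusted p of 0.0499, 0.0468 and 0.0422, and reached 0.261, 0.158 and 0.132 over their alternatives. RPN4 +1302 was hardly cut in any library, with 0.0732 and 0.0214 in KO IP, 0.0252 and 0.0628 in WT IP, 0.0221 and 0.00823 in KO input, and 0.0260 and 0.0294 in WT input.

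**Figure D2:**
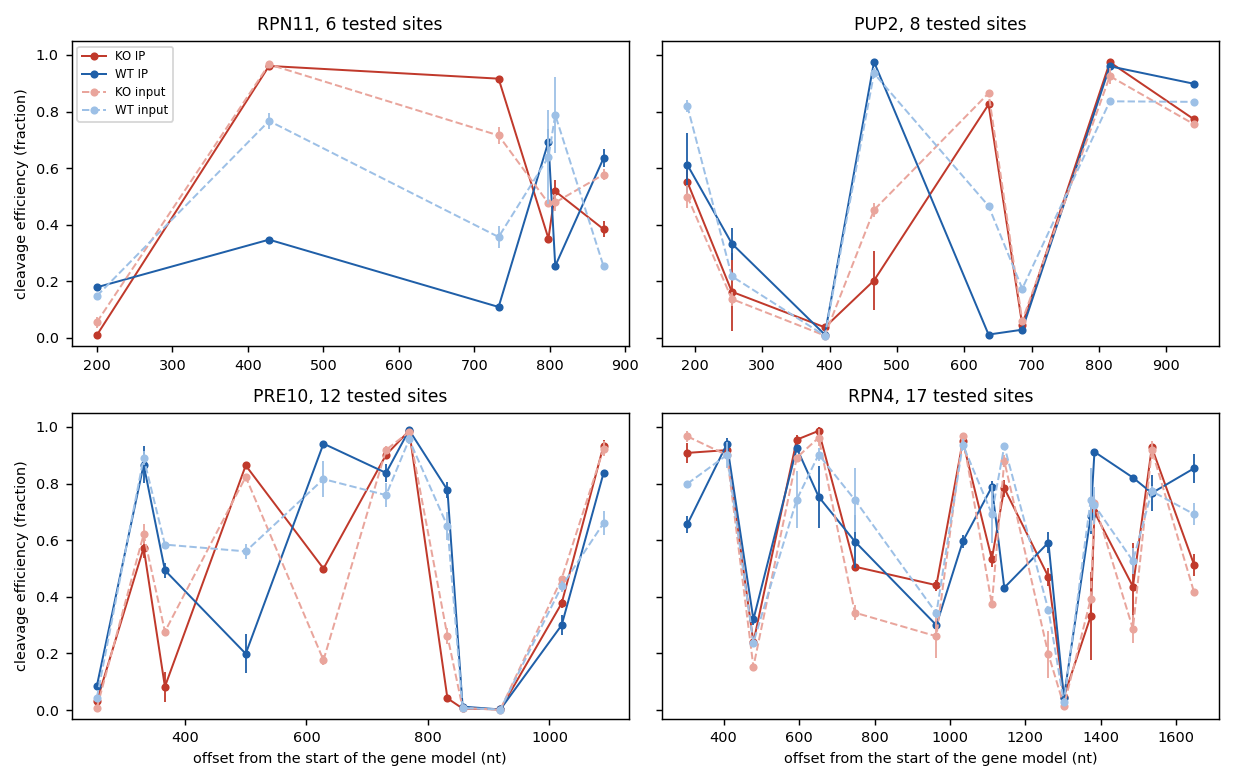
Mean cleavage efficiency (y axis, fraction) at the tested sites of RPN11, PUP2, PRE10 and RPN4 by offset from the start of the gene model (x axis, nucleotides), genes chosen after their values were seen. Solid lines are IP and dashed lines input, red KO and blue WT, with vertical bars from the lower to the higher of 2 libraries; at PUP2 +466 and +636 the KO IP and WT IP lines cross.

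The tested sites next to the large differences were counted in both directions. The 17 sites higher in KO IP by 0.5 or more had 31 next tested neighbours within their genes, of which 3 were higher, 14 lower and 14 not past the threshold. Over all genes, such sites had 1248 neighbours, of which 15.2% were higher and 32.5% lower, and the proteasome shares were 9.68% and 45.2%. Lower calls are also the more common ones at proteasome sites as a whole. RPN11 +428 and RPN11 +732 were next to each other, so each was also counted among the higher neighbours. Around the 11 sites lower by 0.5 or more, 18 neighbours had 5 higher, 1 lower and 12 not past the threshold, against 23.9% higher and 22.1% lower among 756 over all genes. In PRE10, +367 was lower by 0.411, +500 higher by 0.665 and +628 lower by 0.441 in KO IP. In RPT1, +248 was lower by 0.549 and its neighbour +323 higher by 0.650. Neighbouring sites lie in the same gene and their values may not be independent, and these counts carry no test.

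Along the transcripts, each gene was divided into 5 equal stretches from the model start to its last listed site. In the last stretch, 23 of 81 proteasome sites (28.4%) were higher in KO IP and 22 lower, against 21.0% higher and 22.8% lower among all sites there. In the first stretch, 5 of 36 (13.9%) were higher and 9 lower, against 15.3% and 23.2% of all. The last listed site itself was tested in 15 of the genes, where 6 were higher and 5 lower in KO IP, against 27.3% and 15.4% among the 1214 tested last sites of all genes.

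Input RNA, without pulldown, answers the same question on libraries that share no sample with the IP comparison, though whether they came from the same cultures is not stated. Both tests used the same estimate of spread per site, taken over all 8 libraries, so their calls are not independent. In input, 74 of the 340 proteasome sites were higher in KO and 75 lower, together 43.8%, against 32.2% of all tested sites (15.6% higher and 16.6% lower). By 0.5 or more, 7 sites were higher and 7 lower, against 1.61% and 1.47% of all tested sites. Of the 149 calls, 84 were left when KO input replicate 1 was dropped and 79 when replicate 2 was. The lid had more higher than lower calls in KO input, with 23 of 91 sites higher and 13 lower. In the beta ring lower calls were the more common, with 10 of 49 sites higher and 18 lower. The median difference over tested sites was above 0 in both, 0.0280 in the lid and 0.0146 in the beta ring.

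**Figure D3:**
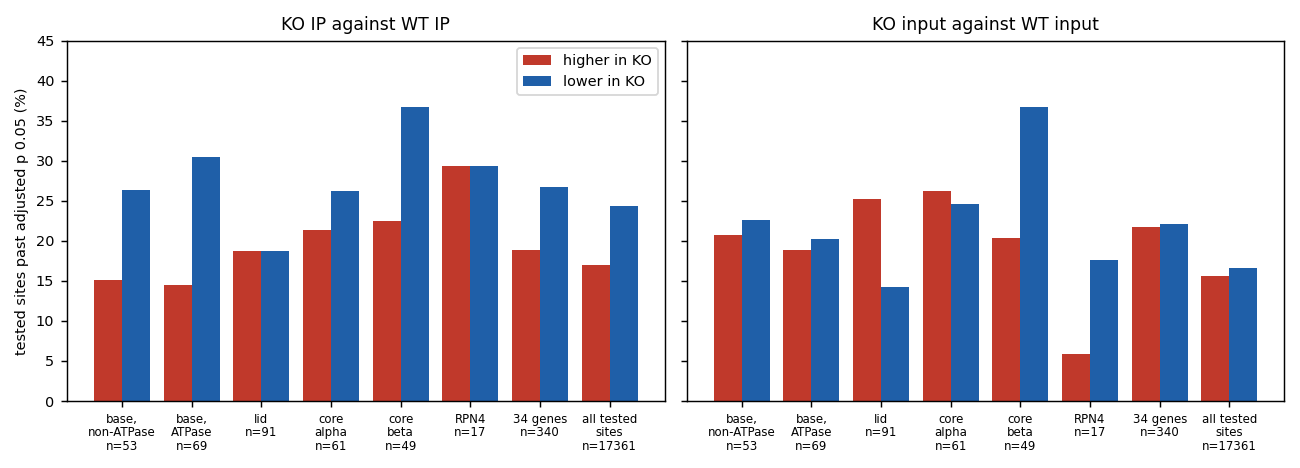
Share of tested sites past an adjusted p of 0.05 (y axis, percent), higher in KO (red) or lower in KO (blue), by subunit role and beside all tested sites, with n the sites tested. KO IP against WT IP is on the left and KO input against WT input on the right; the beta ring has 36.7% of its sites lower in KO in both.

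The large IP sites mostly kept their direction in input. All 17 sites higher in KO IP by 0.5 or more had a positive difference in input, 15 of them past the threshold (88.2%, against 70.1% of the 824 such sites of all genes), with a median of 0.346. All 11 sites lower by 0.5 or more were also lower past the threshold in input (against 72.8% of 470), with a median of -0.409. Across the 340 sites, 41 were higher in KO in both IP and input, 63 were lower in both, and 2 were called in opposite directions. Over all 17361 tested sites 9.07% were higher in both and 12.9% lower in both, and 121 sites were called in opposite directions.

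PRE6 +890 had the largest input difference, with 0.972 and 0.805 in KO input against 0.0942 and 0.0884 in WT input (0.797 ± 0.0607 SE, adjusted p = 0.000649 by limma). RPN9 +616 followed with 0.958 and 0.924 in KO input, against 0.229 and 0.216 in WT input (0.719 ± 0.0249 SE). PRE5 +776 had 0.925 and 0.943 in KO input, against 0.333 and 0.284 in WT input (0.625 ± 0.0272 SE). At these 3 sites every KO value was at or above 0.771 in IP and input alike, and the WT values in input lay above those in IP.

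RPT4 +455 was cut almost fully in KO input, at 0.989 and 0.995, against 0.398 and 0.361 in WT input (difference 0.613 ± 0.0449 SE). RPT1 +323 had 0.924 and 0.938 in KO input, against 0.373 and 0.359 in WT input (0.565 ± 0.0295 SE). PRE1 +884 had 0.758 and 0.757 in KO input, against 0.220 and 0.201 in WT input (0.547 ± 0.0236 SE). The calls at RPT1 +323 and PRE1 +884 held under all 18 alternatives run, and that at RPT4 +455 under the 17 run for it.

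Lower cutting in KO input was largest at PRE10 +628, with 0.159 and 0.194 in KO input against 0.753 and 0.878 in WT input (difference -0.639 ± 0.0439 SE, adjusted p = 0.000513 by limma). RPN1 +2549 had 0.284 and 0.240 in KO input, against 0.860 and 0.915 in WT input (-0.626 ± 0.0904 SE); its IP call, with 0.214 and 0.409 in KO IP against 0.594 and 0.808 in WT IP, ended without KO IP replicate 1 (0.0796) and without WT IP replicate 2 (0.0695). PRE6 +197 had 0.316 and 0.257 in KO input, against 0.875 and 0.911 in WT input (-0.607 ± 0.0303 SE). PRE2 +379 had 0.341 and 0.322 in KO input, against 0.911 and 0.924 in WT input (-0.586 ± 0.0228 SE).

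SEM1, with no call in IP, had 1 in input at SEM1 +272, with 0.926 and 0.905 in KO input against 0.649 and 0.537 in WT input (difference 0.322 ± 0.0533 SE, adjusted p = 0.00752 by limma, 0.00439 to 0.0524 over its alternatives). It ended without KO input replicate 1 (0.0524). RPN4 had 1 site higher and 3 lower in KO input, and all 4 calls ended when either KO input library was left out, with adjusted p up to 0.112. The same held for the input calls at RPN3 +1499 (up to 0.0549), PRE10 +500 (up to 0.0657) and RPN10 +468 (up to 0.0570).

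The pulldown itself moved WT values at fewer sites. In WT IP against WT input, 52 of the 340 sites were higher in IP and 39 lower, against 12.4% and 8.43% of all tested sites. Past 0.5, 1 site was higher and 5 lower, against 0.288% and 1.19%. The balance depends on the scale: it was 31 higher and 45 lower after median centring, 36 and 43 after quantile normalization, and 17 and 25 on a logit scale. PRE3 +342 was lowest relative to input, at 0.261 and 0.110 in WT IP against 0.897 and 0.855 in WT input (difference -0.690 ± 0.0818 SE, adjusted p = 0.00457 by limma). RPN8 +665 had 0.193 and 0.155 in WT IP, against 0.847 and 0.799 in WT input (-0.649 ± 0.0642 SE). RPN6 +680 had 0.242 and 0.263 in WT IP, against 0.852 and 0.911 in WT input (-0.629 ± 0.0449 SE; adjusted p = 0.00131, and 0.0515 on the logit scale).

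Higher in WT IP were sites of RPN1, RPN11 and RPN3. RPN1 +3069 had 0.964 and 0.974 in WT IP, against 0.451 and 0.429 in WT input (difference 0.529 ± 0.0364 SE, adjusted p = 0.00121 by limma). RPN11 +871 had 0.666 and 0.604 in WT IP, against 0.255 and 0.251 in WT input (0.382 ± 0.0348 SE). RPN3 +305 had 0.566 and 0.540 in WT IP, against 0.214 and 0.175 in WT input (0.358 ± 0.0678 SE, adjusted p = 0.0182 and up to 0.0763 over its alternatives), a call that ended without any of the 4 WT libraries.

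Without IME4, few sites passed the threshold between IP and input. In KO IP against KO input, 5 sites were higher and 2 lower, against 1.09% and 0.588% of all tested sites (1.68% in all); after median centring it was 3 higher and 4 lower. At 65 of the 340 sites (19.1%) limma gave an unadjusted p under 0.05, against 16.4% of all tested sites. None differed by 0.5 or more, where all tested sites had 0.0346% higher and 0.023% lower. The libraries of both groups did not overlap at 181 sites, against 50.9% of all. None of the 7 calls was left when any 1 library was left out. Named by size, with 1 a gene and direction, were PRE10 +628, RPN12 +785 and RPT5 +244, higher in IP, and RPN5 +179 and RPN2 +741, lower. PRE10 +628 had 0.494 and 0.506 in KO IP, against 0.159 and 0.194 in KO input (difference 0.323 ± 0.0439 SE, adjusted p = 0.0404 by limma, 0.0344 to 0.230 over its alternatives). RPN12 +785 had 0.664 and 0.672 in KO IP, against 0.447 and 0.403 in KO input (0.243 ± 0.0253 SE).

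Whether the genotype difference itself differed between IP and input was tested as an interaction, the KO minus WT difference in IP minus that in input. It was above 0 at 24 of the 340 sites and below 0 at 14, against 4.31% and 3.44% of all tested sites (7.75% in all), and it reached 0.5 or more at 5 sites above 0, against 1.07%. Among the 17 sites higher in KO IP by 0.5 or more it was above 0 at 12 (70.6%), against 41.9% of the 824 such sites of all genes; these sites were picked by an IP difference that is itself a term of the interaction, so the counts are a description. PRE7 +609 had the largest, 0.640 (adjusted p = 0.00430 by limma, 0.00337 to 0.0692 over its alternatives): it was higher in KO by 0.480 in IP, while in input it had 0.520 and 0.481 in KO against 0.635 and 0.688 in WT (adjusted p = 0.0102, and 0.0701 with KO input replicate 2 left out). RPN6 +680 had an interaction of 0.623, with 0.928 and 0.975 in KO input against 0.852 and 0.911 in WT input, where the libraries do not overlap and the difference did not pass (adjusted p = 0.291). RPN8 +665 likewise had 0.851 and 0.796 in KO input, against 0.847 and 0.799 in WT input.

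Below 0, RPN11 +871 had the largest interaction, -0.575 (adjusted p = 0.00758 by limma), with 0.598 and 0.557 in KO input against 0.255 and 0.251 in WT input, so that it was higher in KO input and lower in KO IP. RPN1 +3069 had -0.455 and PRE10 +832 had -0.348. In RPN4, the interaction was above 0 at RPN4 +1034 and RPN4 +1144, whose input values were 0.958 and 0.975 in KO against 0.957 and 0.918 in WT at the first, and 0.902 and 0.858 in KO against 0.943 and 0.921 in WT at the second. Of the 38 calls, 1 was left when KO input replicate 1 was dropped and 2 when replicate 2 was: PRE7 +609 both times and RPN1 +3069 in the second case.

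**Figure D4:**
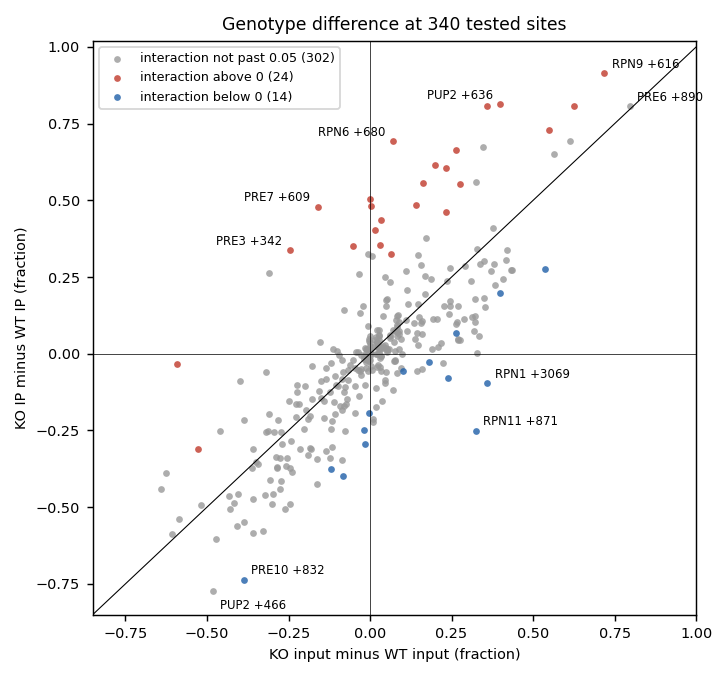
Genotype difference in IP (y axis, KO IP minus WT IP, fraction) against that in input (x axis, KO input minus WT input, fraction) at the 340 tested sites, each point 1 site and the diagonal marking equal differences. Red points are the 24 sites with an interaction above 0, blue the 14 below 0, and grey the 302 that did not pass.

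The 89 sites that were not tested lacked a value in at least 1 library. Of these, 43 lacked a value in KO IP libraries alone, 22 had values in both WT IP libraries and neither KO IP library, and 5 had the reverse. Over the whole table too, the KO IP libraries had values at fewer sites, 36.3% and 49.1%, against 43.7% and 57.1% in WT IP. Of the 45 untested proteasome sites with values in all 4 WT libraries, WT IP lay wholly below WT input at 17 and wholly above it at 20. None of these counts was computed over the untested sites of all genes. At tested sites, WT IP and WT input did not overlap at 69.1% of the proteasome sites and 63.4% of all sites. The sites described next were chosen after their values were seen. PRE4 +478 had 0.234 and 0.129 in WT IP, against 0.923 and 0.940 in WT input, while KO IP replicate 2 had 0.736 and KO input 0.868 and 0.889. RPN12 +923, 4 nucleotides from RPN12 +919, had 0.115 and 0.0570 in WT IP, against 0.770 and 0.613 in WT input. It had 0.845 in KO IP replicate 2, and 0.920 and 0.970 in KO input. RPN11 +438, near RPN11 +428, had 0.486 and 0.333 in WT IP, against 0.952 and 0.953 in WT input. It had no KO IP value, and 0.985 and 0.995 in KO input. In the other direction, RPT5 +522 had 0.740 and 0.648 in WT IP, against 0.212 and 0.226 in WT input. Its KO values were 0.355 in IP replicate 2, and 0.412 and 0.338 in input. RPN3 +1776 had 0.703 and 0.836 in WT IP, against 0.280 and 0.306 in WT input. It had no KO IP value, and 0.640 and 0.765 in KO input.

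Genes that work with the proteasome were listed by role and not by how they moved: 10 assembly factors, 9 proteins that bind the proteasome and 3 that turn over Rpn4. They had 411 listed sites, and 137 in 19 of the 22 genes were tested. In KO IP against WT IP, 18 were higher and 44 lower, or 13.1% and 32.1%, against 17.0% and 24.3% of all tested sites. UBP6, a deubiquitinase bound to RPN1, had 0.890 and 0.910 in KO IP at UBP6 +183, against 0.105 and 0.0926 in WT IP (difference 0.801 ± 0.0491 SE, adjusted p = 0.000202 by limma). ECM29, which tethers the core to the regulatory particle, had 0.811 and 0.886 in KO IP at ECM29 +5672, against 0.256 and 0.230 in WT IP (0.605 ± 0.0577 SE).

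Lower were IRC25, a chaperone of alpha ring assembly, and MUB1, which acts with the UBR2 ubiquitin ligase on Rpn4. IRC25 +492 had 0.106 and 0.0304 in KO IP, against 0.757 and 0.458 in WT IP (adjusted p = 0.0124, and 0.0649 without KO IP replicate 2). MUB1 +2123 had 0.0415 and 0.465 in KO IP, against 0.842 and 0.744 in WT IP (adjusted p = 0.0488, and 0.0254 to 0.182 over its alternatives), and its call ended without KO IP replicate 1 (0.182), either WT IP library (0.170 and 0.117) or either WT input library (0.0738 each). RPN14, NAS6 and POC4 had no tested site.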

How the data were processed

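Cleavage efficiencies were taken from the deposited table as fractions, 1 per ACA site and library; how the authors computed and normalized them, the depth they required and the build used were not stated in the labels or the file header. The submitters' processing notes list bedtools 2.26.0 and STAR 2.5.3a without saying what each did. One line was kept per position and strand; 8 proteasome positions are also listed under another gene model, 1 of them (RPT1 +769) with different values. Sites with a value in all 8 libraries were fitted in limma 3.58.1 (R 4.3.3) as group means of the untransformed fraction (4 residual and 1.72 prior degrees of freedom, prior SD 0.0375), and each comparison's p-values were Benjamini-Hochberg adjusted across 17361 sites, with calls at 0.05. The fit was tested on simulated data. Members, lists and tests were chosen with earlier results of these data known. Sites were named by size of change among those past the threshold whose groups do not overlap, 1 per gene and direction, plus the largest site of each gene. Alternatives were a logit scale (offset 0.01), sites with a value in at least 6 libraries, a mean efficiency of at least 0.1, sites below 0.99, quantile normalization, median centring, a robust and trended prior, fits on the compared libraries alone, each library left out, and replicate blocks. No source says that replicate numbers pair the samples. Same-numbered samples deviated together by correlations of -0.0165 to 0.0788, under the 0.1 set for a pairing, so the block was kept as an alternative. The highest were those of IP with input of the same genotype, 0.0788 in WT and 0.0511 in KO. The rest ran from -0.0165 to 0.0110. No sequences were read.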

Additional observations from a re-analysis of the deposited data

Results flagged for a closer look

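The genotype difference differed between IP and input, by the interaction test, at 21 of the named proteasome sites. All 21 calls ended with a replicate block nested in genotype, and 20 of them, all but PRE7 +609, ended when a KO input library was left out. The interaction (KO minus WT in IP, minus KO minus WT in input) was 0.195 at RPN9 +616, 0.182 at PRE5 +776 and 0.182 at PRE1 +884, sites higher in KO in both. It was 0.415 at PUP2 +636, 0.448 at RPN11 +732, 0.402 at PRE10 +500, 0.373 at RPT6 +1321, 0.396 at PRE4 +856 and 0.231 at RPN12 +919, again with higher values in KO in both and a larger difference in IP. It was 0.623 at RPN6 +680, 0.504 at RPN8 +665, 0.388 at PUP3 +127, 0.324 at RPN4 +1034 and 0.404 at RPN4 +1144, where the input difference did not pass the threshold. PRE7 +609 had 0.640 and was called in opposite directions in IP and input. PRE3 +342 had 0.584. Below 0, it was -0.348 at PRE10 +832, -0.455 at RPN1 +3069, -0.575 at RPN11 +871 and -0.190 at RPN2 +741. RPN12 +785, lower in KO in both, had 0.218, since its difference was -0.311 in IP and -0.529 in input.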

How the results depend on the processing

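Named sites past the threshold kept their sign under the alternatives run for them, but which direction had more calls turned in the 3 comparisons named as such here. Counts are proteasome sites past the threshold. In KO IP against WT IP, 155 sites became 125 to 150 with each library left out. In KO input against WT input, 149 became 79 to 149; the near-even split of 74 higher and 75 lower turned under several alternatives (75 and 66 on the logit scale). In WT IP against WT input, 91 became 42 on the logit scale, 46 with only the compared libraries, 52 with the sites measured in them fitted alone, and 62 to 88 with each library left out; the 52 higher and 39 lower turned to 31 and 45 with median centring, 36 and 43 with quantile normalization, 17 and 25 on the logit scale, 22 and 24 with only the compared libraries, 21 and 31 fitted alone, and 29 and 34 without WT IP replicate 1. In KO IP against KO input, 7 became 4 on the logit scale, 3 with at least 6 libraries, 3 with a mean efficiency of at least 0.1, 1 with the robust and trended prior, 0 with only the compared libraries or fitted alone, and 0 to 0 with each library left out; the 5 higher and 2 lower turned to 3 and 4 with median centring and 2 and 4 with quantile normalization. The interaction's 38 became 8 on the logit scale, 22 with the robust prior and 1 to 28 with each library left out. With the replicate number as a block, which neither the labels nor the correlations show to pair the samples, the counts were 148 in IP, 138 in input, 81 for WT IP against WT input, 0 for KO IP against KO input and 19 for the interaction; with the replicate block nested in genotype they were 63, 0 and 0 for the last 3. Of 74 named IP calls 57 held under all alternatives run for them, including all 18 sites of the plot of efficiency by library; of 41 input calls 28 held, of 6 WT IP against input calls 4, and of the 5 in KO and the 21 interactions 0. Sites at the highest value of a library and the missing read depth limit the precision.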
